A study of Mus musculus with 6 samples.

Results

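The genes *Gzma*, *Gzmb*, *Gzmc*, *Prf1*, *Nkg7*, *Ncr1*, *Klrb1c*, *Klra4*, *Klre1* and *Xcl1*, which are typical of cytotoxic lymphocytes, were followed through the cell clusters of the spinal cord in experimental autoimmune encephalomyelitis (EAE). They were taken as a named list, 10 of the 19449 genes in the single-cell table, and all 10 were found in it. The table holds CD45+ cells sorted from the spinal cord of wild-type C57BL/6 mice after adoptive transfer of myelin-reactive, IL-23-polarized CD4+ T cells (Th17 cells). A single library was made for young recipients (8 to 12 weeks of age) and another for middle-aged recipients (40 to 44 weeks) on day 6, and the same on day 10 posttransfer, each from 4 pooled spinal cords. A group therefore has no replicate, and transferred and host cells were not told apart. Counts are of unique molecular identifiers (UMIs), and a level is given as UMIs per 1000000 UMIs of the same cells (CPM). Intervals in brackets are 95% intervals for counting error alone. Unless stated otherwise, values are in the order young day 6, middle-aged day 6, young day 10, middle-aged day 10.

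Cytotoxic lymphocytes kill by releasing granules onto a target cell. The pore-forming protein perforin lets granzymes, which are serine proteases, into the target, where they cleave substrates and cause its death. Natural killer (NK) cells carry this machinery ready-made and read their targets through germline-encoded activating and inhibitory receptors, while CD8 T cells acquire it on activation and some CD4 T cells hold part of it. In EAE the infiltrate is dominated by myeloid cells and CD4 T cells, and NK cells are a small part of it.

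The 10 genes fall into 3 roles. *Gzma*, *Gzmb* and *Gzmc* encode granzymes, *Prf1* encodes perforin and *Nkg7* a membrane protein of cytotoxic granules. *Ncr1* (NKp46) and *Klrb1c* (NK1.1) encode activating receptors of NK cells, *Klra4* (Ly49D) an activating receptor of the Ly49 family, and *Klre1* a lectin-like receptor that pairs with other Klr chains. *Xcl1* encodes lymphotactin, the chemokine that draws dendritic cells carrying its receptor. In GENCODE vM21 on GRCm38 the receptors *Klrb1c* (chr6:128778485-128789215), *Klre1* (chr6:129577905-129585827) and *Klra4* (chr6:130043731-130067271) lie in the NK gene complex on chromosome 6. *Gzmc* (chr14:56231441-56234656) and *Gzmb* (chr14:56258838-56262260) are close neighbours on chromosome 14. Members of the Ly49 and granzyme families have near-identical relatives, so the counts of *Klra4* and *Gzmc* are less certain than the rest.

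The windows of 250 bases before the RefSeq start (GRCm38.p6, read on the strand of the gene) are shown for 2 granzyme genes that both NK-like and T cells held and for 2 receptors that were nearly confined to the NK-like cells. Capitals mark the letters TGTGGT, found at many RUNX sites, and TCACAC, the core of T-box sites, on either strand. These are windows chr13:113100982-113101231 (minus), chr14:56262335-56262584 (minus), chr7:4337465-4337714 (plus) and chr6:130067272-130067521 (minus).
Gzma: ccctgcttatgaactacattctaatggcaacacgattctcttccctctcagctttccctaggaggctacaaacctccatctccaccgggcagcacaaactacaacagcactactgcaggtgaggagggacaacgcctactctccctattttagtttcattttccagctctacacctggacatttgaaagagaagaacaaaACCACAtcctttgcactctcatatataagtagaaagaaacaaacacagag
Gzmb: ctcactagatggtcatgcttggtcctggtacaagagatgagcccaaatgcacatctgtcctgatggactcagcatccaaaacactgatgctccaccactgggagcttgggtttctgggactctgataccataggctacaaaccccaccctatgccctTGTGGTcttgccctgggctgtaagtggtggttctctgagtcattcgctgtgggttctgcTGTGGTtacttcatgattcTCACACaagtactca
Ncr1: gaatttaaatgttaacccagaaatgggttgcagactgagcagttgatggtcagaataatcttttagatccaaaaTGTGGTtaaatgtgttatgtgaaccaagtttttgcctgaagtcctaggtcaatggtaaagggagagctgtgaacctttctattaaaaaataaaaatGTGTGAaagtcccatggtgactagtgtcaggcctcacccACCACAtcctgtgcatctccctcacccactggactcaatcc
Klra4: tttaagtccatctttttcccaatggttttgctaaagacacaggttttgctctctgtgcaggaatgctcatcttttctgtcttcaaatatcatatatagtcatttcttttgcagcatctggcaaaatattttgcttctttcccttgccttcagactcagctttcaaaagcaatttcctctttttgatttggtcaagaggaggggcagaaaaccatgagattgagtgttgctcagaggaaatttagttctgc

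The letters TGTGGT or their reverse complement ACCACA were present in a window of 9 of the 10 genes, all but *Klra4*, against 14.0% of the 32851 windows of all genes. The T-box letters (TCACAC or GTGTGA) were present for 5 of the 10, *Gzmb*, *Klre1*, *Ncr1*, *Nkg7* and *Xcl1*, against 12.3% of all windows, and the ETS letters AGGAAG or CTTCCT for 6 of the 10 against 29.5%. *Ncr1* and *Klre1* have 2 starts each, and a match at either was counted. These matches are letters in a window and no evidence of binding.

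The 4 libraries hold 38057 cells in 16 deposited clusters, between 8315 and 10026 cells and 57337626 to 69859331 UMIs a library, with a median of 4704.5 to 6196 UMIs per cell. Of the barcodes, 154 occur in 2 libraries each, which touches 58 cells of cluster 2 and 6 of cluster 9. Cluster 9 had all 9 of the fixed NK markers that are no member of the list above the other cells (median log2 ratio 3.8). It also had 3 of 8 T cell markers (median -0.71) and all 3 gamma-delta T cell markers (median 2.74) above the other cells. *Cd3e* was found in 40 of its 779 cells (5.13%), *Trac* in 77 and *Trdc* in 117 (15.0%). Cluster 9 is called NK-like. Its 10 leading genes were *Klra4*, *Klra8*, *Phactr3*, *Khdc1a*, *Ncr1*, *Klra9*, *Adamts14*, *Klrb1a*, *Klrb1c* and *Prf1*, 4 of them members. Cluster 2 had all 8 T cell markers above the other cells (median log2 ratio 4.0) and is T cell-like. It also had 7 of 9 NK markers (median log2 ratio 1.88), all 6 innate lymphoid and all 3 gamma-delta T cell markers above the other cells. Its name as a CD4 cluster holds in part. Of its 6830 cells, 55.9% had a *Cd4* UMI and no *Cd8a* or *Cd8b1* UMI, 10.6% had *Cd8a* or *Cd8b1* without *Cd4*, 2.71% had both and 30.8% neither, and 3.82% had a UMI of *Trdc*, the constant chain of the gamma-delta T cell receptor. *Cd4* had 1197, 1264, 3448 and 4102 UMIs in the 1307, 1137, 1923 and 2463 cells of cluster 2. At such counts a cell without a *Cd4* UMI is not shown to lack the transcript. The clusters were made from all genes, these included, so levels of one cluster against another are a description.

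Every one of the 10 genes had its highest pooled level in NK-like cluster 9, which held 259, 96, 243 and 181 cells, or 3.11%, 0.958%, 2.47% and 1.83% of its library. Which share of all UMIs of a gene came from these few cells differed widely. Cluster 9 held 89.0% of the *Klra4* UMIs, 83.5% of those of *Ncr1*, 73.1% of *Klrb1c*, 67.1% of *Prf1* and 56.5% of *Klre1*. It held 47.2% of *Gzma*, 45.6% of *Gzmc*, 34.3% of *Xcl1*, 27.2% of *Gzmb* and 12.8% of *Nkg7*. T cell-like cluster 2 held the larger part of the *Nkg7* UMIs (66.0%), and 48.5% of *Gzmb* and 47.0% of *Xcl1*. For the 10 genes together, clusters 2 and 9 held between 77.7% and 82.6% of the UMIs of a library.

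**Figure D1:**
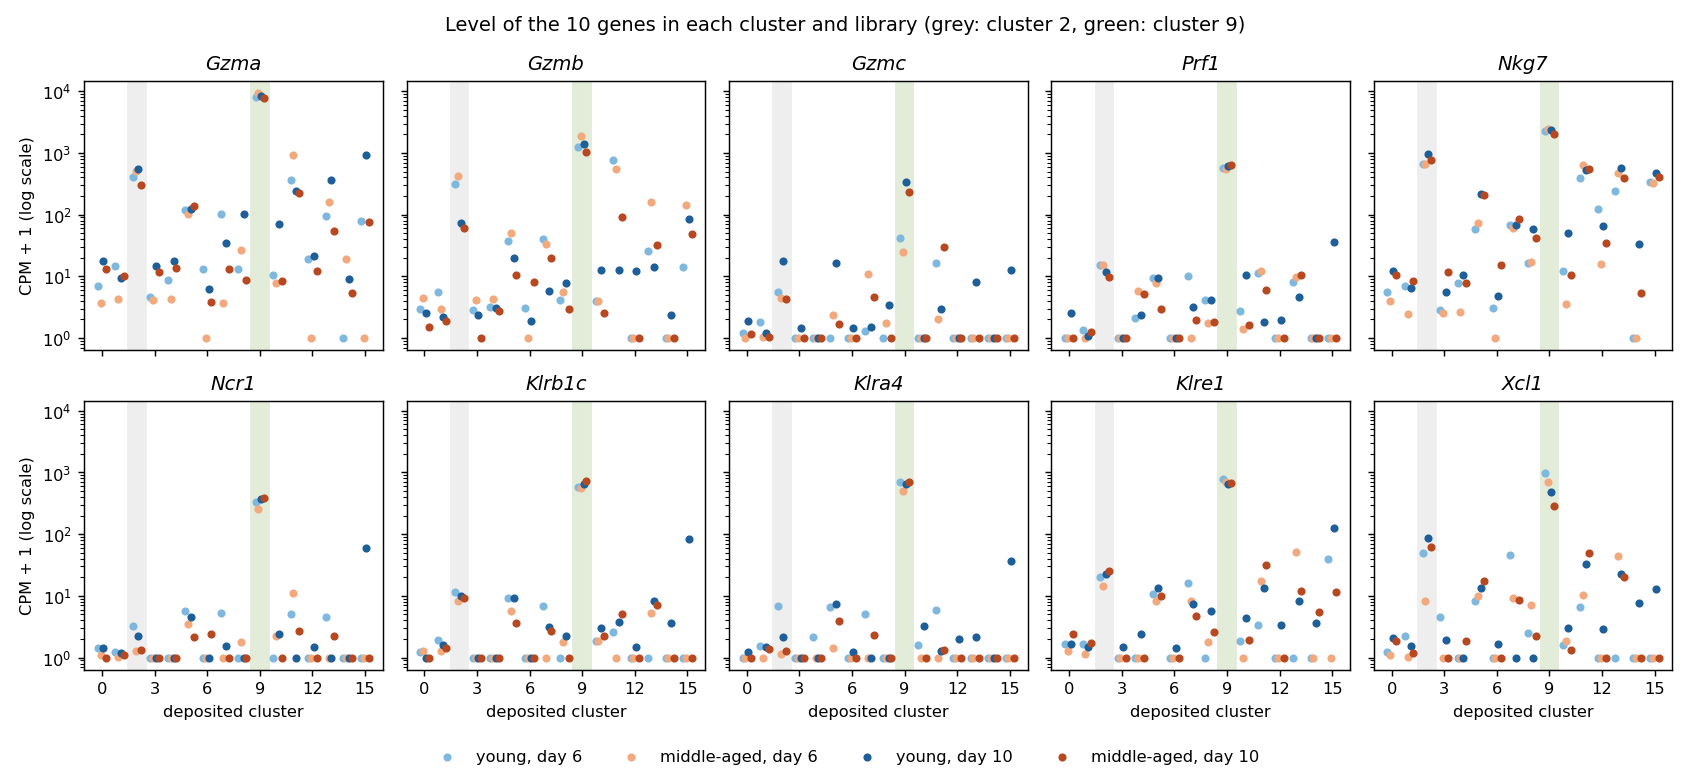
Level of each gene (CPM + 1, log scale) in the 16 deposited clusters, with 1 point per library. All 10 genes peak in cluster 9 (green), where *Gzma* lies between 7770 and 9275 CPM. *Nkg7*, *Gzma* and *Gzmb* also stand high in cluster 2 (grey).

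The granule genes were abundant in cluster 9. *Gzma* was measured at 8121, 9275, 8349 and 7770 CPM and was found in 94.96%, 90.9%, 91.6% and 83.3% of cells once each cell had been thinned to 2000 UMIs. *Gzmb* was measured at 1252, 1853, 1373 and 1049 CPM, and *Prf1* at 564, 552, 619 and 625 CPM. *Nkg7* was measured at 2250, 2418, 2368 and 1993 CPM. These 4 genes spread over less than a 2-fold range across the libraries, and *Prf1* moved least, its libraries overlapping within their intervals.

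The receptors differed as little between the libraries. *Klrb1c* was measured in cluster 9 at 589, 550, 662 and 730 CPM, *Klre1* at 771, 706, 653 and 679 CPM, and *Klra4* at 699, 494, 662 and 690 CPM. *Ncr1* was measured at 335, 256, 373 and 379 CPM, from 324, 97, 342 and 266 UMIs. The lowest values of *Klra4*, *Ncr1* and *Klrb1c* lay in the library of middle-aged day 6, which had the fewest cells and the highest summed T cell markers in this cluster (1906 CPM, against 1031 to 1077 CPM in the others); their part in the result was not tested. In 716 of the 779 cells (91.9%) 2 or more of these 4 receptor genes were detected, and in 203 cells all 4 were.

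*Gzmc* was a gene of very few cells. Its level in cluster 9 was 41.4, 23.8, 341 and 231 CPM, but it was found in 9, 2, 12 and 8 cells, and the 10 highest cells of a library held 99.4% to 100% of its UMIs. Single cells held 177 of 313 UMIs on day 10 in the young and 81 of 162 in the middle-aged. *Xcl1* was also uneven, with 46.0% to 72.9% of its UMIs in the 10 highest cells of each library.

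**Figure D2:**
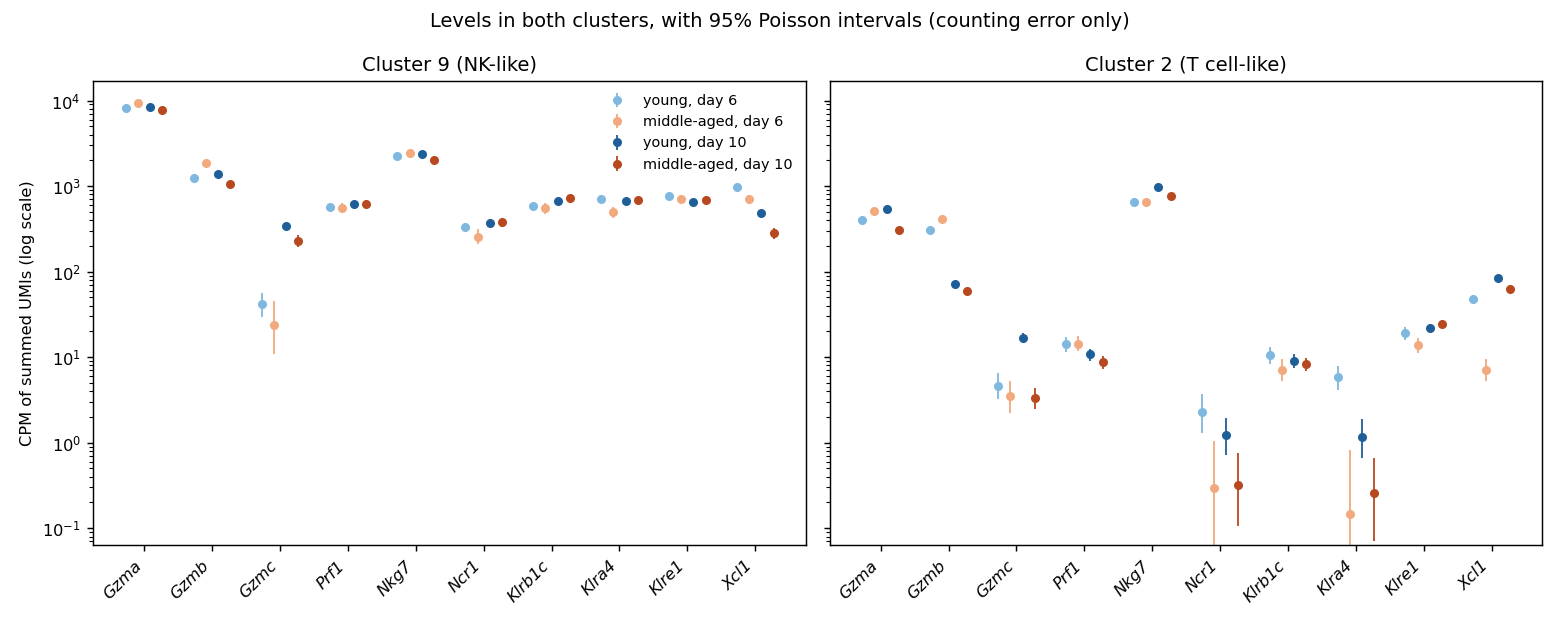
Level (CPM of summed UMIs, log scale) of the 10 genes in NK-like cluster 9 and T cell-like cluster 2, 1 point per library with its 95% Poisson interval. In cluster 2, *Gzmb* stands at 310 and 417 CPM on day 6 and at 71.8 and 59.7 CPM on day 10, and *Ncr1* and *Klra4* stay at or under 5.79 CPM.

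In T cell-like cluster 2 *Nkg7* and *Gzma* were the most abundant of the 10 genes over all libraries. *Nkg7* was measured at 659, 659, 965 and 762 CPM, and *Gzma* at 401, 508, 542 and 306 CPM. The pooled level of cluster 9 was 2.83-fold that of cluster 2 for *Nkg7*, 8.17-fold for *Gzmb*, 10.6-fold for *Xcl1* and 19.2-fold for *Gzma*. For *Gzmc* it was 22.3-fold, for *Klre1* 33.3-fold and for *Prf1* 53.2-fold. It was 73.6-fold for *Klrb1c*, 375-fold for *Ncr1* and 460-fold for *Klra4*, the largest ratios of the 10 genes.

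Perforin and the receptors were low in cluster 2. *Prf1* was measured there at 14.1, 14.4, 10.8 and 8.74 CPM, from 100, 99, 149 and 135 UMIs. *Klre1* was measured at 18.9, 13.7, 21.9 and 24.7 CPM and *Klrb1c* at 10.6, 7.14, 9.02 and 8.22 CPM. *Ncr1* was seen in 8, 2, 11 and 4 cells and *Klra4* in 8, 1, 6 and 3 cells of 1307, 1137, 1923 and 2463, so that neither receptor could be followed in this cluster. After cluster 9, the small cluster 15 (9, 4, 24 and 22 cells), which had all 8 T cell, all 6 B cell and 8 of 9 NK markers above the other cells, had the next highest pooled level of these 5 genes. It held 53.8 CPM of *Klre1*, 29.0 CPM of *Klrb1c*, 20.7 CPM of *Ncr1* and 12.4 CPM each of *Klra4* and *Prf1*. All 14 *Klrb1c* UMIs of cluster 15 came from the library of young day 10.

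Detection was read against B cell-like cluster 4 (all 6 B cell markers above the other cells), which should hold none of these transcripts, after every cell had been thinned to 2000 UMIs. Over all libraries *Nkg7* was detected in 48.3% of 6605 cells of cluster 2 against 1.02% in cluster 4, *Gzma* in 10.0% against 2.65%, and *Gzmb* in 9.14% against 0.427%. *Klre1* was detected in 3.39%, *Xcl1* in 2.56% and *Klrb1c* in 1.74% of cells, against 0 in cluster 4, where 0 of 1172 cells allows a share of up to 0.256%. *Prf1* stood at 2.09% against 0.683% and *Gzmc* at 0.59% against 0. For these 8 genes the interval of cluster 2 lay above that of cluster 4 over all libraries together. Library by library it did so for *Gzma*, *Gzmb* and *Nkg7* in all 4, for *Klre1* and *Xcl1* in all but middle-aged day 6, for *Klrb1c* in both day 10 libraries, and for *Prf1* and *Gzmc* in none. For *Ncr1* (0.212%) and *Klra4* (0.136%) it did not even over all libraries, so these shares were not set apart from those of cluster 4. In cluster 2 of young day 6 the few cells with these genes held 41 *Klra4* and 16 *Ncr1* UMIs. Whether the 2 shares are background was not tested. The median depth before thinning was 4715 to 6225 UMIs per cell in cluster 2, 2402 to 2997 in cluster 4 and 2788 to 3363 in cluster 9; without thinning the shares of *Nkg7* in cluster 2 were 55.0%, 55.3%, 64.1% and 57.9%.

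**Figure D3:**
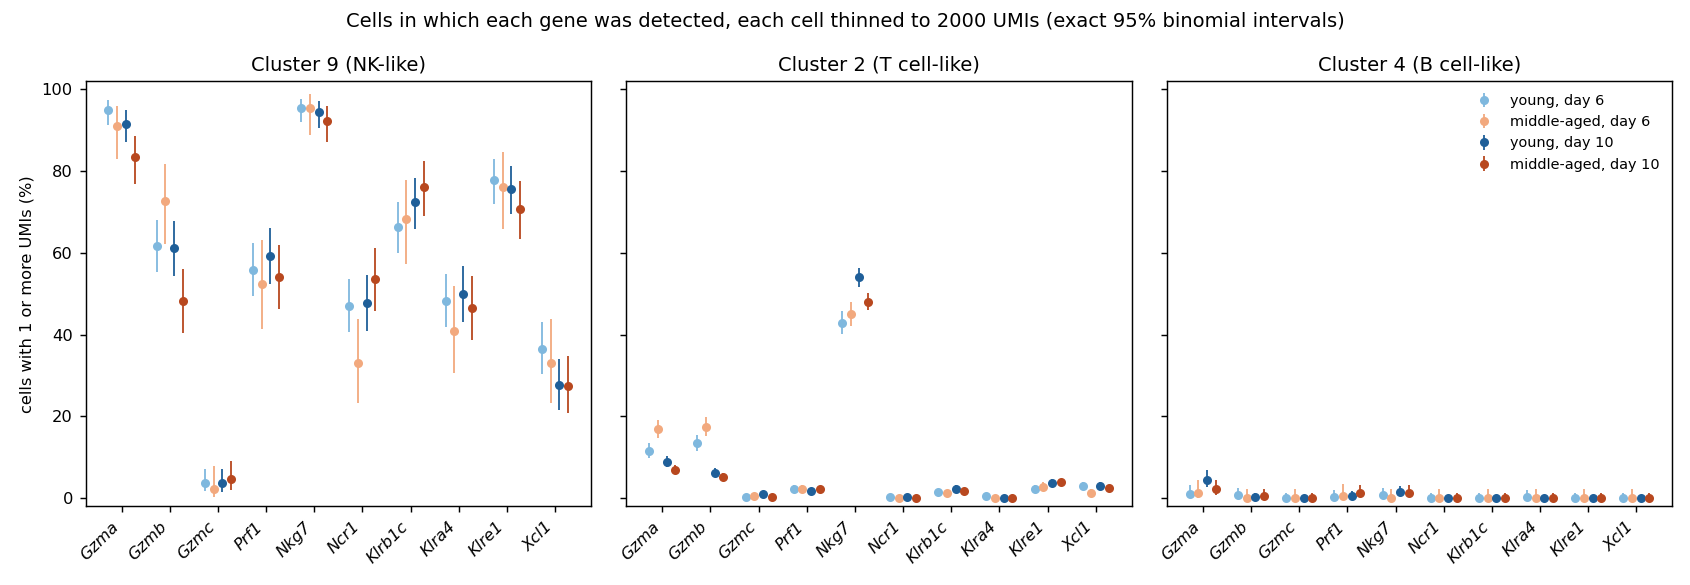
Percent of cells with 1 or more UMIs of each gene in clusters 9, 2 and 4 after thinning every cell to 2000 UMIs, 1 point per library with the exact 95% binomial interval. *Nkg7* is detected in 42.9% to 54.0% of cluster 2 cells, and at most 1.42% of cluster 4 cells.

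The cells of cluster 2 rarely held many of the members at once. The median number of members detected in a thinned cell was 6 in cluster 9 and 1 in cluster 2, and 5 or more were detected in 79.2% of the cells of cluster 9 and 0.242% of those of cluster 2. In cluster 2 117 of 6830 cells (1.71%) held UMIs of 2 or more of the 4 receptor genes. A UMI of *Cd3e* or *Trac* was found in 103 of these 117 cells (88.0%), against 95.4% of the cluster 2 cells with none of the receptors, a *Cd4* UMI in 19.7% against 60.0%, a *Trdc* UMI in 11.97% against 3.37% and an *Eomes* UMI in 22.2% against 2.30%. Most of the cells with several receptor genes in cluster 2 thus carried T cell receptor transcripts, and few carried *Cd4*.

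Within cluster 2 *Gzma*, *Nkg7* and *Prf1* were highest in cells with *Cd8* and no *Cd4* transcripts in every library, but the *Cd4* cells held *Nkg7* and *Gzma* as well. In cells with *Cd8a* or *Cd8b1* and no *Cd4* (192, 132, 192 and 207 cells), *Gzma* was measured at 1030, 1509, 2446 and 747 CPM, against 268, 374, 418 and 354 CPM in cells with *Cd4* and no *Cd8*. *Nkg7* was measured at 1304, 1271, 1312 and 1167 CPM in the *Cd8* cells and at 522, 573, 1010 and 823 CPM in the *Cd4* cells. *Prf1* was measured at 46.6, 79.8, 64.9 and 60.8 CPM in the *Cd8* cells and at 2.76, 2.53, 5.20 and 4.33 CPM in the *Cd4* cells. In all 4 libraries *Gzma*, *Gzmb*, *Gzmc*, *Prf1*, *Nkg7*, *Klrb1c* and *Klre1* stood higher in the *Cd8* cells, by 12.5- to 31.6-fold for *Prf1*, 5.61- to 36.6-fold for *Gzmb* and 1.30- to 2.497-fold for *Nkg7*. *Xcl1* and *Klra4* did so in 2 of the 4 libraries and *Ncr1* in 1. Since the *Cd4* cells outnumbered the *Cd8* cells, they still held 65.8% of the cluster 2 UMIs of *Nkg7* and 55.1% of those of *Gzma*, but 20.6% of those of *Gzmb* and 24.0% of those of *Prf1*. Cells in which neither *Cd4* nor *Cd8* was detected held 62.8% of the *Klrb1c* UMIs of the cluster. Their level, 25.1, 17.9, 25.5 and 26.9 CPM, was above the 5.38, 14.9, 21.1 and 11.9 CPM of the *Cd8* cells in each library.

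**Figure D4:**
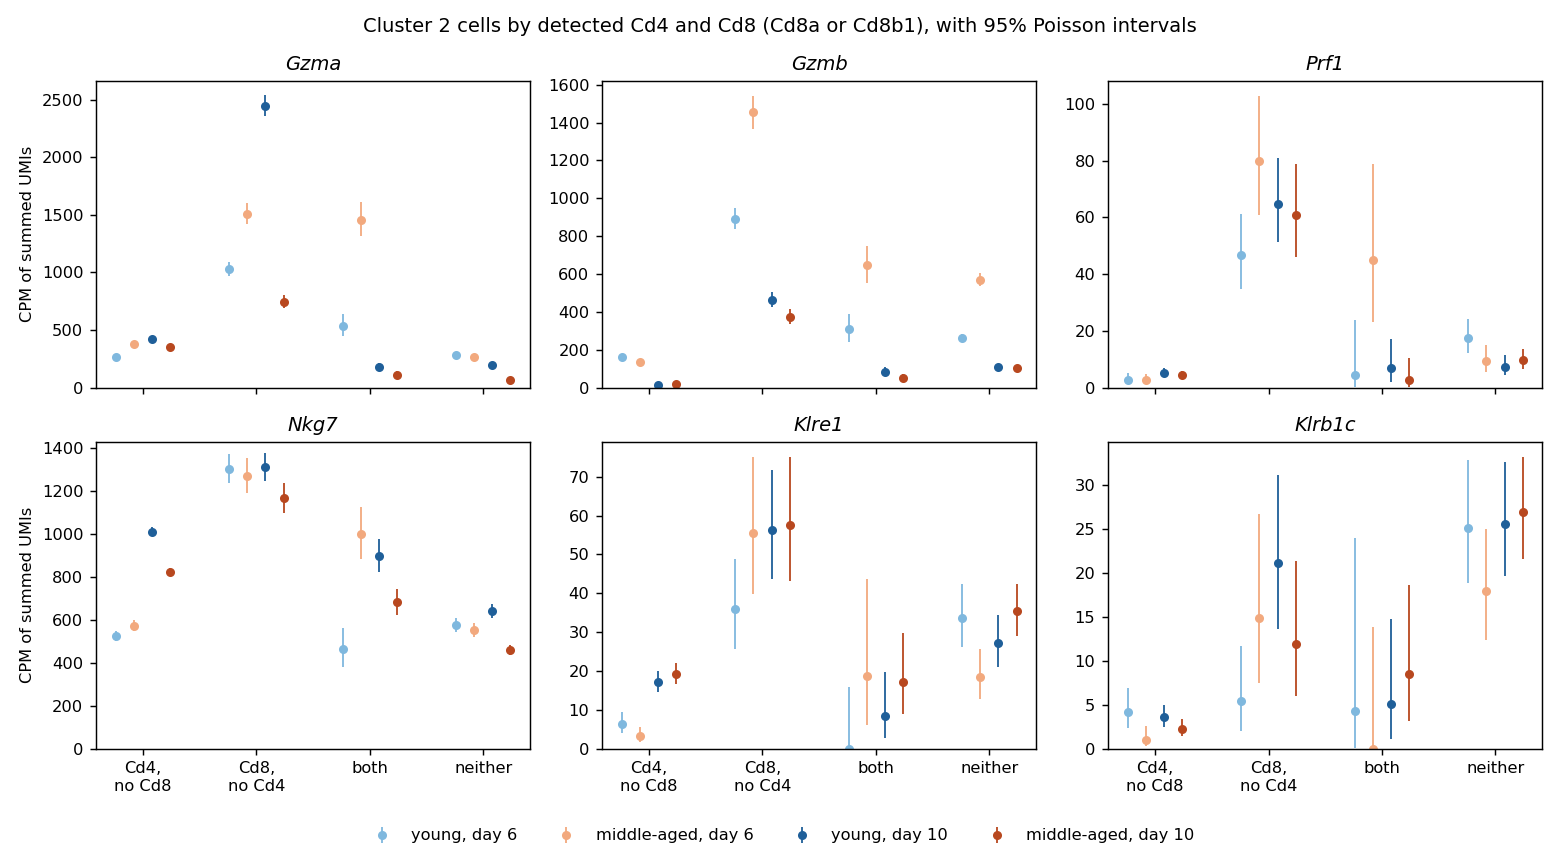
Level (CPM of summed UMIs, axes from 0) of 6 of the genes in cells of cluster 2 with *Cd4* and no *Cd8*, *Cd8* and no *Cd4*, both or neither, 1 point per library with its 95% Poisson interval. *Prf1* lies at 46.6 to 79.8 CPM in the *Cd8* cells and at 2.53 to 5.20 CPM in the *Cd4* cells, and *Gzmb* is lower on day 10 than on day 6 in all 4 kinds of cell.

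Granzyme A and perforin were detected together in the NK-like cells and seldom in the *Cd4* cells. Of thinned cells with a *Gzma* UMI, 382 of 642 in cluster 9 (59.5%), 20 of 138 *Cd8* cells (14.5%) and 5 of 335 *Cd4* cells (1.49%) also had a *Prf1* UMI. Of cells without a *Gzma* UMI, 22.7%, 7.58% and 0.726% had a *Prf1* UMI, in the same order. A *Gzmb* UMI was found in 63.2%, 65.9% and 14.3% of the cells with *Gzma*. An *Nkg7* UMI was found in 95.6%, 94.2% and 71.0% of them, against 46.8% of *Cd4* cells without a *Gzma* UMI. The pooled *Gzmb* shares join unlike days. By library they were 25.9%, 30.7%, 4.44% and 2.91% in the *Cd4* cells with *Gzma*. In the *Cd8* cells with *Gzma* they were 78.4%, 78.3%, 66.0% and 39.3%.

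*Gzmb* fell between day 6 and day 10 in cluster 2, at both ages. Its level was 310 and 417 CPM on day 6 in young and middle-aged recipients, and 71.8 and 59.7 CPM on day 10, so the days did not overlap. The log2 change over both ages was -2.35 (SE 0.22, adjusted p = 1.12e-06, edgeR quasi-likelihood test over 4 libraries with age as covariate and 1 residual degree of freedom). It was lower 4.32-fold in the young [log2 ratio -2.22 to -2.002] and 6.995-fold in the middle-aged [-2.91 to -2.70]. The thinned share of cells with *Gzmb* was 13.5% and 17.5% on day 6, and 6.23% and 5.22% on day 10. In the *Cd4* cells the level went from 159 and 135 CPM to 12.7 and 19.5 CPM, in the *Cd8* cells from 893 and 1454 CPM to 465 and 376 CPM, and cells with neither also stood lower on day 10 at both ages. The *Cd8* share of the cluster, which moved with the day too, was 14.7% and 11.6% on day 6 and 9.98% and 8.40% on day 10, and *Gzmb* was lower on day 10 within each of these kinds of cell. In sums over a cluster, fewer cells that express a gene and less RNA per cell cannot be told apart. Cells of cluster 2 that also held markers of another lineage, mostly of neutrophils or monocytes, were 8.26%, 7.83%, 35.4% and 19.6% of the cluster in the 4 libraries, and without them *Gzmb* changed by -2.28 (adjusted p = 1.29e-16, edgeR, within a range of 2.14e-67 to 0.00158 over the alternatives). In this test 7.22% of 11362 genes were called (3.25% fell and 3.97% rose), and of the 10 members, all of which were tested, 1 fell and 1 rose.

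*Xcl1* was the member of cluster 2 that rose with the day, from 48.0 and 7.14 CPM to 85.2 and 62.0 CPM (log2 change 1.90, SE 0.31, adjusted p = 0.000521, edgeR). The value rests in part on single cells. Without the highest cell of each library, the young levels were close on both days and the rise stood in the middle-aged. On day 10, 1 cell held 671 of 1180 UMIs in the young library and 1 cell 361 of 958 in the middle-aged, and without the highest cell of each library the levels were 33.7, 5.98, 36.8 and 38.7 CPM, with a log2 change of 1.31 and adjusted p = 0.0204; over the alternatives the adjusted p ran from 1.27e-58 to 0.45. The call was made in 8 of 12 alternatives. The log2 change was 3.43 without young day 6 and 0.76 without middle-aged day 6, and the call was lost without young day 10 (1.27) or middle-aged day 10 (1.80), under DESeq2 and with day alone. For *Nkg7* the log2 change was 0.49 (SE 0.20, adjusted p = 0.195) and for *Klre1* 0.63 (SE 0.20, adjusted p = 0.0706), and neither passed the threshold of 0.05. *Gzma* changed by -0.039 (SE 0.25, adjusted p = 0.968).

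In cluster 9, *Xcl1* fell and *Gzmc* rose between the days. *Xcl1* was at 973 and 703 CPM on day 6 and at 480 and 282 CPM on day 10, with the days apart (log2 change -1.13, SE 0.16, adjusted p = 1.38e-10, edgeR). It was lower 2.03-fold in the young [log2 ratio -1.19 to -0.86] and 2.49-fold in the middle-aged [-1.59 to -1.05]. Without the highest cell of each library the levels were 913, 536, 414 and 256 CPM, and without the library of middle-aged day 10 the adjusted p (edgeR) was 0.0841 (log2 change -0.79). The thinned share of cells with *Xcl1* was 36.6% and 33.0% on day 6 and 27.6% and 27.4% on day 10. The change of *Gzmc* (log2 3.15, SE 0.24, adjusted p = 5.03e-36) rests on the few cells described above, and it did not pass in cells without markers of another lineage (log2 change 2.05, adjusted p = 0.307, within a range of 5.18e-36 to 0.307 over the alternatives). In this test 2.24% of 7002 genes were called (1.37% fell and 0.871% rose), and 2 of the 10 members. *Gzmb*, *Ncr1* and *Klrb1c* had unadjusted p under 0.05, with log2 changes of -0.31, 0.36 and 0.30, and did not pass after adjustment (adjusted p 0.443, 0.442 and 0.502). An unadjusted p under 0.05 (edgeR) was found for 680 of the 7002 genes. Whether the change of *Gzmb* differed between clusters 2 and 9 was not tested.

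The same tests were made between the ages. In cluster 9, *Xcl1* was the 1 member of 10 called over both days (log2 change middle-aged over young -0.58, SE 0.16, adjusted p = 0.0373, edgeR with day as covariate), where 0.6% of 7002 genes were called, 0.5% higher and 0.1% lower. It was lower in the middle-aged on both days, by 1.38-fold on day 6 [log2 ratio -0.67 to -0.27] and 1.70-fold on day 10 [-1.02 to -0.52]. The call was lost under DESeq2 and other settings, with adjusted p from 0.00229 to 1.00 over the alternatives, and without the young day 6 or middle-aged day 10 library, with age alone in the fit, the change was 0.012 or 0.015. For *Prf1* the change was 0.021 (SE 0.15), for *Nkg7* -0.044 (SE 0.14), for *Gzma* 0.074 (SE 0.15) and for *Klrb1c* 0.056 (SE 0.15). The median over the 10 members was -0.024, against 0.0076 over all genes tested.

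In cluster 2 no member of 10 was called with age by edgeR, where 0.0616% of 11362 genes were called, 0.0088% higher and 0.0528% lower. An unadjusted p under 0.05 (edgeR) was found for 279 of the 11362 genes and for 4 of the members. These 4 were *Klra4* (log2 change -3.40, adjusted p = 0.0503), *Gzmc* (-1.68, adjusted p = 0.186), *Xcl1* (-1.38, adjusted p = 0.239) and *Ncr1* (-2.29, adjusted p = 0.554), and each rests on few cells. In the alternatives with all 4 libraries the lower level of *Klra4* was called in 4 of 7, that of *Gzmc* in 4 of 8, that of *Xcl1* in 3 of 8 and that of *Ncr1* in none, and none was called when a library was left out. Over all alternatives the adjusted p ran from 1.78e-05 to 1.00 for *Klra4*, from 1.12e-06 to 1.00 for *Gzmc* and from 1.68e-08 to 1.00 for *Xcl1* (edgeR or DESeq2). *Nkg7* changed by -0.17 (SE 0.20) and *Gzma* by -0.24 (SE 0.25). The median over the members was -0.29, against 0.0009 over all genes tested.

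For single pairs of libraries there is no test. Between the days, 1 member was 2-fold or more higher and 1 lower in cluster 9 at each age, *Gzmc* and *Xcl1*, where 2.17% of genes with 20 or more UMIs were higher and 3.01% lower in the young, and 5.08% and 3.57% in the middle-aged. Between the ages, no member of cluster 9 reached 2-fold on either day, and 2.54% of genes were higher and 4.68% lower on day 6, and 2.54% and 1.88% on day 10. In cluster 2, *Klra4* and *Xcl1* were 2-fold or more lower in the middle-aged on day 6 (1.82% of genes), and *Gzmc*, *Ncr1* and *Klra4* on day 10 (0.839%), none was higher (1.71% and 1.34%). Between the days in cluster 2, *Gzmc* was higher in the young (4.19%) and *Xcl1* in the middle-aged (4.89%), while *Gzmb* was lower at both ages and *Klra4* in the young (5.28% and 3.45%).

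Lists of related genes were read in the same tests. Of 26 other NK receptors and adaptors, 22 stood higher in cluster 9 than in cluster 2 in all 4 libraries, as did 9 of 13 lineage factors and cytokine receptors, among them *Eomes*, a T-box factor of NK cells (164 to 207 CPM against 4.55 to 8.47 CPM). Of 17 granule and killing genes found among the single-cell counts, 8 did, and 2 stood higher in cluster 2, one of them *Gzmk* (16.9 against 28.3 CPM pooled). Of 7 secreted products, *Ifng*, the cytokine that activates macrophages (143 against 618 CPM), and *Tnf* were among the 3 higher in cluster 2. The share of all genes higher in either cluster in all 4 libraries was not taken, so these counts describe the lists alone. Between the days in cluster 2, 6 of 23 receptors tested rose and 1 fell (median log2 change 0.046, against -0.00093 over all genes), where 3.97% of all genes rose and 3.25% fell. *Klra5* (3.43, adjusted p = 2.34e-06), *Klrb1b* (2.37, adjusted p = 6.52e-06) and *Klrb1a* (2.09, adjusted p = 0.0237) had the largest rises and *Klra9* fell (-1.71, adjusted p = 0.0248), all by edgeR, and as Ly49 or Klrb1 family members they share sequence with near relatives. Of 16 granule genes tested, *Cst7*, which encodes the protease inhibitor cystatin F (0.94, adjusted p = 0.00279), and *Ctsw* (0.69, adjusted p = 0.0337) rose, and *Serpinb6b* (-0.81), *Gzmk* (-0.81) and *Serpinb9*, an inhibitor of granzyme B (-0.66, adjusted p = 0.0295), fell. Of 7 secreted products *Tnf* rose (1.52, adjusted p = 0.000663, edgeR), and of 13 lineage factors and cytokine receptors *Il12rb1*, a chain of the IL-12 receptor, fell (-0.80, adjusted p = 0.0187, edgeR). In cluster 9, 2 of 6 secreted products rose between the days, *Tnf* (2.15, adjusted p = 5.02e-10) and *Ccl3* (0.95, adjusted p = 7.68e-05), against 0.871% of all genes, and none of the other 3 lists had a call. Cells of cluster 9 that also held markers of another lineage were 11.97%, 19.8%, 25.5% and 25.4% of the cluster in the 4 libraries. Those with neutrophil markers were 3, 4, 31 and 12 cells. The part of such cells in the rises of *Tnf* and *Ccl3* was not tested. With age no gene of the 4 lists was called in either cluster by edgeR.

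Outside clusters 2 and 9, the members were mostly found in cells that also held lymphocyte transcripts. Of 26360 member UMIs in the other 14 clusters, 87.7% lay in the 2349 cells (7.71%) with 2 or more UMIs of *Cd3d*, *Cd3e*, *Cd3g*, *Trac*, *Eomes*, *Klrd1* and *Il2rb*. Cluster 11, which had all 3 markers of dividing cells, all 8 of T cells and all 4 of basophils and mast cells above the other cells, held 9884 of them, with pooled levels of 524 CPM of *Nkg7*, 326 CPM of *Gzma* and 203 CPM of *Gzmb*. There *Gzmb* stood second after cluster 9. Cluster 5, with 5 of 7 monocyte/macrophage markers above the other cells, held 7176, of which 98.4% lay in such cells.

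The genes outside the list with the pattern most like the mean of the 10, over 57 sums of 20 or more cells by cluster and library, were *Klrb1f* (Pearson r 0.942), *Eomes* (0.940), *Itga2* (0.932), *Samd3* (0.927), *Ncald* (0.925), *Klra7* (0.923), *Klrc2* (0.922), *Klrg1* (0.918), *Serpinb9b* (0.908) and *Klri2* (0.903). These sums share libraries and depth, and the values describe likeness alone. Among the members r to the same mean, which holds the gene itself, ran from 0.867 for *Gzmc* to 0.957 for *Klre1*.

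The 2 bulk libraries of microglia from naive young and middle-aged mice, 1 per age, held almost none of these transcripts. *Gzma*, *Gzmc*, *Ncr1*, *Klra4*, *Klre1* and *Xcl1* had 0 counts of 79373420 and 76293436, which allows up to 0.0378 and 0.0393 CPM. *Prf1* had 13 and 22 counts (0.164 and 0.288 CPM), and *Gzmb*, *Nkg7* and *Klrb1c* had 0 to 6. *Cd3e* had 0 counts in both, and *Tmem119*, a microglial marker, 266344 and 261668. Of the NK markers, *Klrd1* had 265 and 176 counts (3.34 and 2.31 CPM) and *Eomes* 4 and 2. The paper sorted these cells by surface markers of microglia before RNA was extracted.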

How the data were processed

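CD45+ spinal cord cells were measured by single-cell RNA sequencing (10x Genomics v3) in 4 libraries, and naive microglia by bulk RNA sequencing in 2. The authors counted the single cells with CellRanger v3.1.0 on mm10 (GENCODE vM23), filtered cells and clustered them in Seurat, and deposited raw UMI counts with a cluster number, without normalization. The bulk values are raw read counts per gene as deposited. The deposited cluster numbers were used as they are, and every per-sample column was assigned to a sample. The submitters' processing notes name Cell Ranger 3.1.0.

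UMIs were summed by cluster and library (Python 3.11.15, numpy 2.4.6, scipy 1.17.1, pandas 2.3.3, matplotlib 3.10.9). Day and age effects were tested with edgeR 4.0.16 in R 4.3.3 (quasi-likelihood, TMM, genes with 10 or more UMIs in 2 or more libraries, Benjamini-Hochberg over all genes tested, threshold 0.05), with the other factor as covariate and 1 residual degree of freedom, and again with DESeq2 1.42.0. With 1 library per age and day, the residual holds any difference of the age effect between the days together with technical spread. The p-values therefore do not measure a spread between replicates. In cluster 9 edgeR fitted 1 spread for all genes. The study's Wilcoxon test over cells was not used, since cells are not replicates. The test was tried on simulated data first. Ratios of single libraries carry exact conditional binomial intervals, shares exact binomial (Clopper-Pearson) intervals and sums Poisson intervals, all for counting error only, and a count of 0 allows 3 counts. Shares were taken after thinning each cell to 2000 UMIs, leaving out shallower cells (71 of 779 in cluster 9, 225 of 6830 in cluster 2). No doublet caller was run. Promoter windows are from RefSeq (GRCm38.p6), matched by symbol for 10 of 10 genes.

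All 10 members were named, related genes by 4 fixed lists (at most the 3 largest and 3 smallest fold changes of a list), genes of like pattern by the 10 highest r and leading genes by the 10 largest ratios. The members and lists were chosen with earlier results of these data known. Alternatives changed size factors, filter, tool, covariate, library, depth, genes in the total and cells kept. Those that remove the cell holding most UMIs of a member, or count fewer NK markers, the class of *Trdc* cells and the lineage markers left out because NK or T cells also hold them (*Trbc1*, *Trbc2*, *Cd3d*, *Cd3g*, *Lat* and *Cd28* in cluster 9, *Ly6c2* and others in both) were chosen after seeing the data.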

Additional observations from a re-analysis of the deposited data

Results flagged for a closer look

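*Gzma* and *Gzmb* differed between the ages in opposite directions on the 2 days. In cluster 2 the middle-aged over young log2 ratio of *Gzma* was 0.34 on day 6 and -0.82 on day 10, and that of *Gzmb* 0.43 and -0.27. In cluster 9 the ratio of *Gzma* was 0.19 on day 6 and -0.10 on day 10, and that of *Gzmb* 0.57 and -0.39. Read by age, *Gzma* in cluster 2 had a day 10 over day 6 log2 ratio of 0.44 in the young and -0.73 in the middle-aged, and *Gzmb* in cluster 9 one of 0.13 and -0.82. Each of these ratios has a counting interval that leaves out 0, and with 1 library per age and day the difference between the days or the ages was not tested. *Gzmc* was lower in the middle-aged on both days. Its ratios were -0.41 and -2.36 in cluster 2 and -0.80 and -0.56 in cluster 9, with intervals that hold 0 on day 6. The ratios of *Gzma* in cluster 2 rest on a small part of the cells, since the 10 highest cells held 36.7% to 46.5% of its UMIs in a library. Among cells of cluster 2 with *Cd4* and no *Cd8*, the *Gzma* ratio between the ages was 0.48 on day 6 and -0.24 on day 10, and among those with *Cd8* and no *Cd4* 0.55 and -1.71. The *Gzmb* ratio between the ages went the other way in the *Cd4* cells, -0.24 on day 6 and 0.62 on day 10, and was 0.70 and -0.31 in the *Cd8* cells. In cells of cluster 2 with fewer than 2 UMIs of NK markers the ratios between the ages did not differ in direction. They were 0.39 and 0.93 for *Gzma* and 0.70 and 0.58 for *Gzmb*. The ratio of *Gzma* between the days was -2.48 in the young and also below 0 in the middle-aged. T cells share some of these markers, and the filter kept 381, 285, 454 and 675 of 1307, 1137, 1923 and 2463 cells.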

How the results depend on the processing

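No paired analysis was possible because each age and day has 1 library and the replicate numbers pair nothing. With 4 libraries of 4 pooled cords and 1 residual degree of freedom, counts of called genes moved with the settings, and the causes were not tested. The age effect over both days in cluster 9 (42 genes by edgeR) gave 8 without a filter, 6 by DESeq2, 3 with age alone, 0 without cells of other lineages (209 at an unadjusted p under 0.05) and 0 to 31 leaving out a library. The day effect over both ages in cluster 9 (157) gave 30, 18, 73, 11 and 40 to 176 (95 without young day 10) in the same order. The age effect over both days in cluster 2 (7, of which 1 higher) gave 16 with RLE size factors (5 higher), 34 without a filter, 16 in cells of 1000 or more UMIs, 29 without cells of other lineages, 0 with age alone (48 at an unadjusted p under 0.05) and 0 leaving out any library; DESeq2 gave 6. The day effect over both ages in cluster 2 (820) gave 360 by DESeq2 and 279 to 1925 leaving out a library (321 without young day 10, 1647 without young day 6). *Gzmb* fell with the day in cluster 2 under all 12 alternatives (log2 -2.60 to -2.10). The age change of *Xcl1* in cluster 9 ran from -1.34 to 0.015 leaving out a library (0.012 without young day 6). In cluster 2, keeping the cells (381, 285, 454 and 675) with fewer than 2 UMIs of NK markers, some of which T cells share, turned the sign of *Gzma* (0.93) and *Gzmb* (0.58) between the ages on day 10, of *Gzma* (-2.48) and *Prf1* (1.16) between the days in the young, and of *Prf1* (0.73) in the middle-aged. The *Xcl1* ratio between the ages on day 10 was 0.58 without cells of other lineages, 1.10 without cells holding NK markers that T cells lack and 0.073 without the highest cell, and between the days in the young it was -0.39 without cells of other lineages. *Gzmc* in cluster 9 between the ages on day 10 was 3.24 without cells of other lineages.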

Other observations

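Cells of cluster 2 with a *Trdc* UMI (62, 32, 69 and 98 in the 4 libraries) were looked at after the data had been seen. They held *Gzmb* at 614, 1385, 274 and 181 CPM, *Klrb1c* at 31.5, 16.3, 44.02 and 29.1 CPM and *Nkg7* at 624, 679, 914 and 707 CPM. Those without *Cd4* and *Cd8* transcripts (51, 23, 51 and 72 cells) held *Gzmb* at 599.6, 1905, 341 and 299 CPM and *Gzma* at 199.9, 205, 22.4 and 10.6 CPM.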
